A study of Mus musculus with 6 samples.

Results

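Baseline translation efficiency (TE) was measured in control mouse embryonic stem cells as the ribosome footprints on each coding sequence over the messenger RNA reads on it. All 6535 rows of the deposited table were used, without any knockdown sample, so the members are the whole table and 2 of the 6 libraries of the series. The table holds 6532 gene symbols, and Taf9, Gm5506 and Rps4x have 2 rows each. TE was the log2 of a row's share of the coding reads in the footprint library over its share in the RNA library. Values below are given relative to the median row (the median log2 ratio itself was -0.18), so 0 is a typical message and 1 is 2-fold above it.

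Ribosomes load onto a message at its capped 5′ end, scan its 5′ untranslated region (5′ UTR) and start at the coding sequence (CDS), and the number of ribosomes on a message per copy of it is taken as its translation efficiency. Small upstream reading frames in the 5′ UTR, proteins bound to the message and its export from the nucleus are known to set that number. Embryonic stem cells are known for a low overall rate of protein synthesis, and many pluripotency factors in them are short-lived proteins.

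The cells were wild-type E14, an established mouse embryonic stem cell line grown on gelatin in serum with LIF, the cytokine that maintains self-renewal. They were transfected with 20 nM of a non-targeting siRNA pool, harvested after 36 h with the last passage 16 h earlier, and the footprint library (siCtrl RPF, ribosome-protected fragments) and the RNA library (siCtrl RNA) both come from this condition. RNase A plus T1 trimmed the footprints after cycloheximide at 100 µg/ml for 2 min, from lysates without nuclei, whereas the RNA was rRNA-depleted total RNA. RNA kept in the nucleus therefore counts in the denominator of TE and not in the numerator, and its part in any value below was not tested.

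The footprint library held 15193841 CDS reads and the RNA library 12122153, with 838 and 764 reads in the median row. Reads in the first 15 and last 5 codons were left out of the CDS count by the authors. Every row exceeds 150 CDS reads in each library, which limits the counting error: the median 95% interval of a log2 TE was ± 0.15 and the widest ± 0.32. With 1 library of each kind there is no replicate check, no test and no p-value, and the intervals cover counting error only. Of 11 embryonic stem cell markers 10 were in the table, with 669 to 14928 RNA reads, and together they held 6298 CPM (reads scaled to 1000000 CDS reads of the library) in siCtrl RPF and 4993 CPM in siCtrl RNA. Nanog was not analysed here. Trophoblast markers were present for 3 of 6 genes, with 96.4 CPM in siCtrl RPF and 77.5 CPM in siCtrl RNA. In the same order, primitive endoderm markers were present for 1 of 6 (36.5 and 15.1 CPM) and the fibroblast list for Vim alone (394 and 229 CPM). Neural markers were present for 3 of 4 (176 and 177 CPM) and mesoderm markers for 0 of 4. All values are means over the culture, in which fewer cells of a type and less RNA per cell cannot be told apart.

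A well known sequence that governs translation is the terminal oligopyrimidine (TOP) tract, a C at the cap followed by an unbroken run of pyrimidines, carried by messages for ribosomal proteins and translation factors. The 8 starts below are shown because they come from messages of these lists with the highest and the lowest TE among the 17 that had the motif. The RefSeq table (GRCm38.p6) holds a start for 5321 of the 6535 rows, each sequence gives 10 bases before and 20 bases from that start, 5′ to 3′ on the gene's strand, and capitals mark the run of C and T that begins at the start.
Eif3f: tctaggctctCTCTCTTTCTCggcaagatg
Nap1l1: gctctcgggtCTTTTTTagcgccatctgct
Rpl28: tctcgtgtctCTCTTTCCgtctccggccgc
Eif2s3x: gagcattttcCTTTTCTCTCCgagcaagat
Rps18: cacttccgctCTCTCTTCCacaggaggcct
Rpl35: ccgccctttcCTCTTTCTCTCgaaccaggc
Gnb2l1: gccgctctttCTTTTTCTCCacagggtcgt
Rps27: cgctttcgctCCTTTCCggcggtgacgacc

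Their positions are chr7:108934405-108934434 (+ strand) for Eif3f, chr10:111473217-111473246 (+) for Nap1l1, chr7:4792955-4792984 (+) for Rpl28 and chrX:94212632-94212661 (-) for Eif2s3x. Rps18 lies at chr17:33955646-33955675 (-), Rpl35 at chr2:39005112-39005141 (-), Gnb2l1 at chr11:48800350-48800379 (+) and Rps27 at chr3:90213629-90213658 (-). The authors' reads were mapped to mm9, and these coordinates are on GRCm38.p6 only. Runs of the same length, 11 pyrimidines, began messages of different TE: Eif3f, an initiation factor subunit, had a log2 TE of 1.28 (5062 footprint reads and 1875 RNA reads), and Rpl35, a ribosomal protein, had -0.28 (14677 and 16044). Nap1l1, a histone chaperone, had a TE of 1.19, Rpl28 1.10 and Eif2s3x, a subunit of the factor that brings the initiator tRNA, 0.33. Besides Rpl35, the lowest of those shown were Rps18 at -0.26, Gnb2l1, which encodes the ribosomal scaffold Rack1, at -0.55 and Rps27 at -1.24. A start with C and at least 4 further C or T was present in 823 of the 32851 windows of the RefSeq table, 2.51%. The 161 rows with it had a median log2 TE of 0.03 (quartiles -0.41 and 0.41). The 5160 rows with another start had -0.00 (quartiles -0.45 and 0.46). Only 55 of 75 ribosomal protein rows (73.3%) and 16 of 24 further TOP messages (66.7%) have a start in that table, too few to describe the motif within these lists. The motif was found in 12 of the 55 and 5 of the 16, so most of these messages counted as rows with another start. The comparison therefore cannot tell whether TOP messages differ in TE from other messages.

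TE spanned a wide range but most messages lay close together. The quartiles were -0.44 and 0.46, which differ 1.87-fold, and the 5th and 95th percentiles were -1.27 and 1.40, which differ 6.37-fold. Within 1.5-fold of the median lay 3961 rows (60.6%). At least 2-fold above the median were 655 rows (10.0%) and at least 2-fold below it 562 rows (8.60%), and these shares are the background for every count below. With the ratio of the library totals as the centre, in place of the median row, these counts were 475 and 811. The 95% interval lay wholly beyond the 2-fold line for 514 of the high rows and 399 of the low rows. At least 4-fold above were 117 rows and at least 4-fold below 61. The high rows held 17.9% of footprint reads and 6.88% of RNA reads, and the low rows held 2.61% of footprint reads and 8.28% of RNA reads. Across rows, log2 footprint reads and log2 RNA reads had a Pearson correlation of 0.87 (Spearman's rho 0.83), which describes rows of 1 pair of libraries that share transcript length and is not a test.

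**Figure D1:**
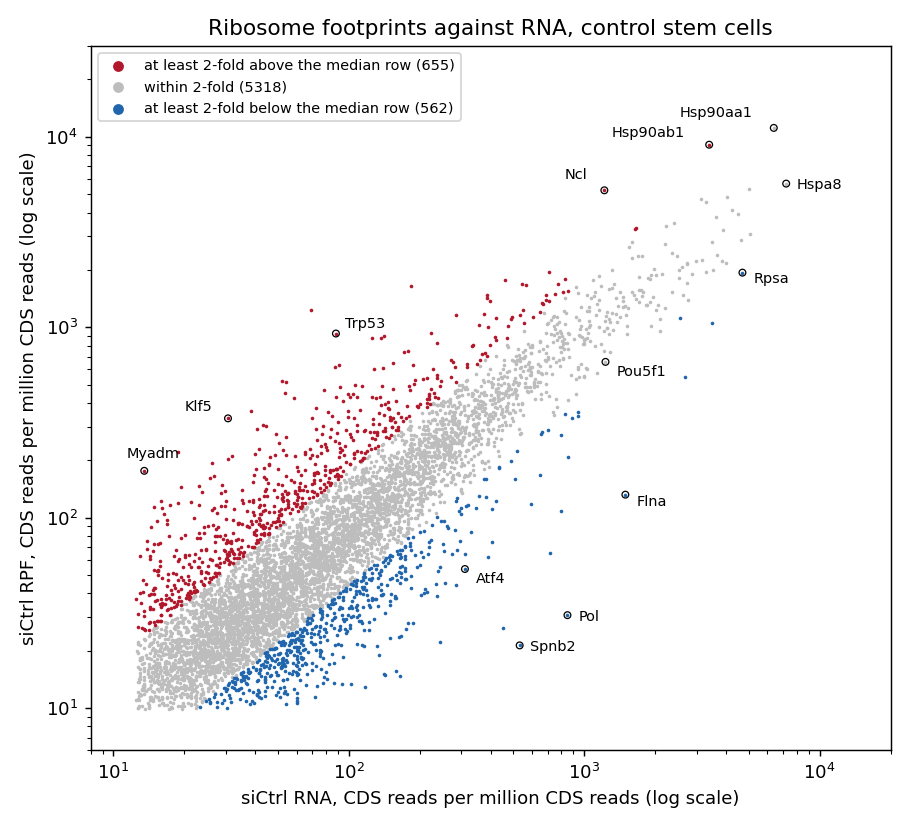
CDS reads in CPM in siCtrl RPF (y axis, log scale) against siCtrl RNA (x axis, log scale) for 6535 rows, with the 655 rows at least 2-fold above the median TE in red, the 562 at least 2-fold below it in blue and 13 genes named. Trp53 and Klf5 lie far above the diagonal band, Flna, Spnb2 and Pol far below it, and the straight left and lower edges come from the floor of 150 reads.

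Messages for RNA-binding proteins and transcription factors were among the rows with the highest TE. Hnrnpa3, a nuclear ribonucleoprotein, had 1653 CPM of footprints and 184 CPM of RNA, a TE of 3.35, and Srrm1, a splicing coactivator, had 452 and 53.8 CPM, a TE of 3.25. Atxn2l, a relative of ataxin-2, had a TE of 3.43. Trp53, the p53 tumour suppressor, had 926 CPM of footprints and 88.2 CPM of RNA (14073 and 1069 reads), a TE of 3.57 (3.48 to 3.66). Klf5, a transcription factor of the pluripotency network, had 332 and 30.7 CPM, a TE of 3.61 (3.46 to 3.76). Myadm, a membrane protein, reached 3.88 on 164 RNA reads, near the floor of the table, with an interval of 3.65 to 4.11. Further rows among the 12 highest were Ubqln2, a ubiquitin-binding shuttle, at 3.73, Anp32b, an acidic nuclear protein, at 3.49, Ubap2 at 3.42, Gatad2b, a subunit of the NuRD repressor, at 3.11 and Pom121, an anchor of the nuclear pore, at 3.10.

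The lowest row of all was named Pol, described in the table as a retroviral Pol polyprotein, with 467 footprint reads and 10290 RNA reads and a TE of -4.61. On its annotated 5′ UTR it had 16700 footprint reads and 18060 RNA reads, so 97.0% of its footprints lay outside the annotated CDS. Several of the others were messages of the actin cytoskeleton. Spnb2 (now Sptbn1), which encodes a beta-spectrin of the membrane skeleton, had 324 footprint reads and 6447 RNA reads, 21.3 and 532 CPM, a TE of -4.46 (-4.63 to -4.30). Flna, a filamin that crosslinks actin, had 2005 footprint reads and 18129 RNA reads, a TE of -3.33. Iqgap1 (-3.28) and Iqgap3 (-2.76), scaffolds that bind actin, were also among the 12 lowest. These 4 rows had 7 or fewer footprint reads in the 5′ UTR, a raw count not set against the RNA reads there.

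A further 6 of the 12 lowest rows are given with their reads or shares on the 5′ UTR. Asnsd1 had 199 there and 225 on its CDS, with 384 and 1997 RNA reads, and a CDS TE of -3.30. Tmem183a had 182 footprint reads on the 5′ UTR and 226 on the CDS, and 42.2% of its footprints but 1.29% of its RNA reads lay in the 5′ UTR. Its CDS TE was -3.08. For Wsb2, a substrate adaptor of ubiquitin ligases, the shares were 32.6% and 1.71%, for Gpr125 (now Adgra3), an adhesion receptor, 29.7% and 3.31%, for Vps54, a tethering subunit of retrograde transport, 29.0% and 4.13%, and for 2610507B11Rik 12.1% and 0.344%. Their CDS TE values were -3.01 for Wsb2, -3.05 for Gpr125, -3.17 for Vps54 and -3.28 for 2610507B11Rik.

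**Figure D2:**
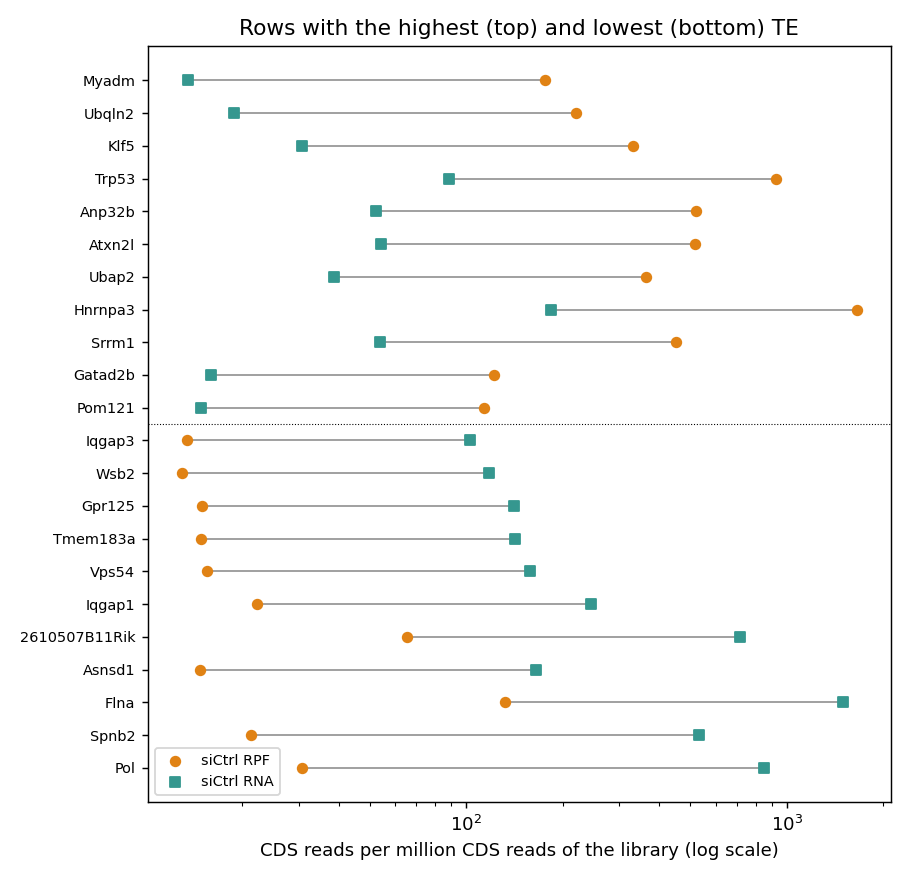
CDS reads in CPM (x axis, log scale) in siCtrl RPF (orange circles) and siCtrl RNA (teal squares) for 11 of the 12 rows with the highest TE, above the dotted line, and 11 of the 12 with the lowest, below it. The gap between the symbols is the TE, and footprints exceed RNA in every row of the upper group and fall short of it in every row of the lower group.

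Of the 8 rows with most footprints, 2 lay at least 2-fold above the median row and 0 at least 2-fold below it. The 8 with most footprint reads were led by Hsp90aa1 (169156 footprint reads and 77414 RNA reads, TE 0.98) and Hsp90ab1 (138031 and 41152, TE 1.60), the cytosolic Hsp90 chaperones. Reads per row are not scaled to length, so these counts rank reads and not protein output. Ncl, the nucleolar protein nucleolin, stood out among them with 79542 footprint reads and 14763 RNA reads, a TE of 2.28 (2.25 to 2.31). Npm1, another nucleolar protein, had 0.76 and the prolyl isomerase Ppia 0.65. Trim28, a corepressor that silences retroviruses in stem cells, had 0.44. Hspa8, the constitutive Hsp70, had 86241 and 87392 reads and a TE of -0.17. Pkm2 (now Pkm), the pyruvate kinase that the study knocks down in its other libraries, had 80593 and 60849 reads and a TE of 0.26. Among the 8 rows with most RNA reads, Rpsa (-1.10), Gnb2l1 (-0.55) and Rpl3 (-0.51) lay below the median row, and Eif4a1, the helicase of the cap-binding complex (-0.02), and Rpl4 (0.13) close to it.

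The medians of gene groups ran from 0.90 for hnRNP proteins to -0.65 for selenoproteins. Of 39 lists with at least 3 rows, 24 had a median above that of all rows and 15 below it. Some rows stand in several lists, so the lists are not independent of each other. Each list is described by its median and counts, with no test, and the shares of all rows, 10.0% above and 8.60% below, stand beside them.

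**Figure D3:**
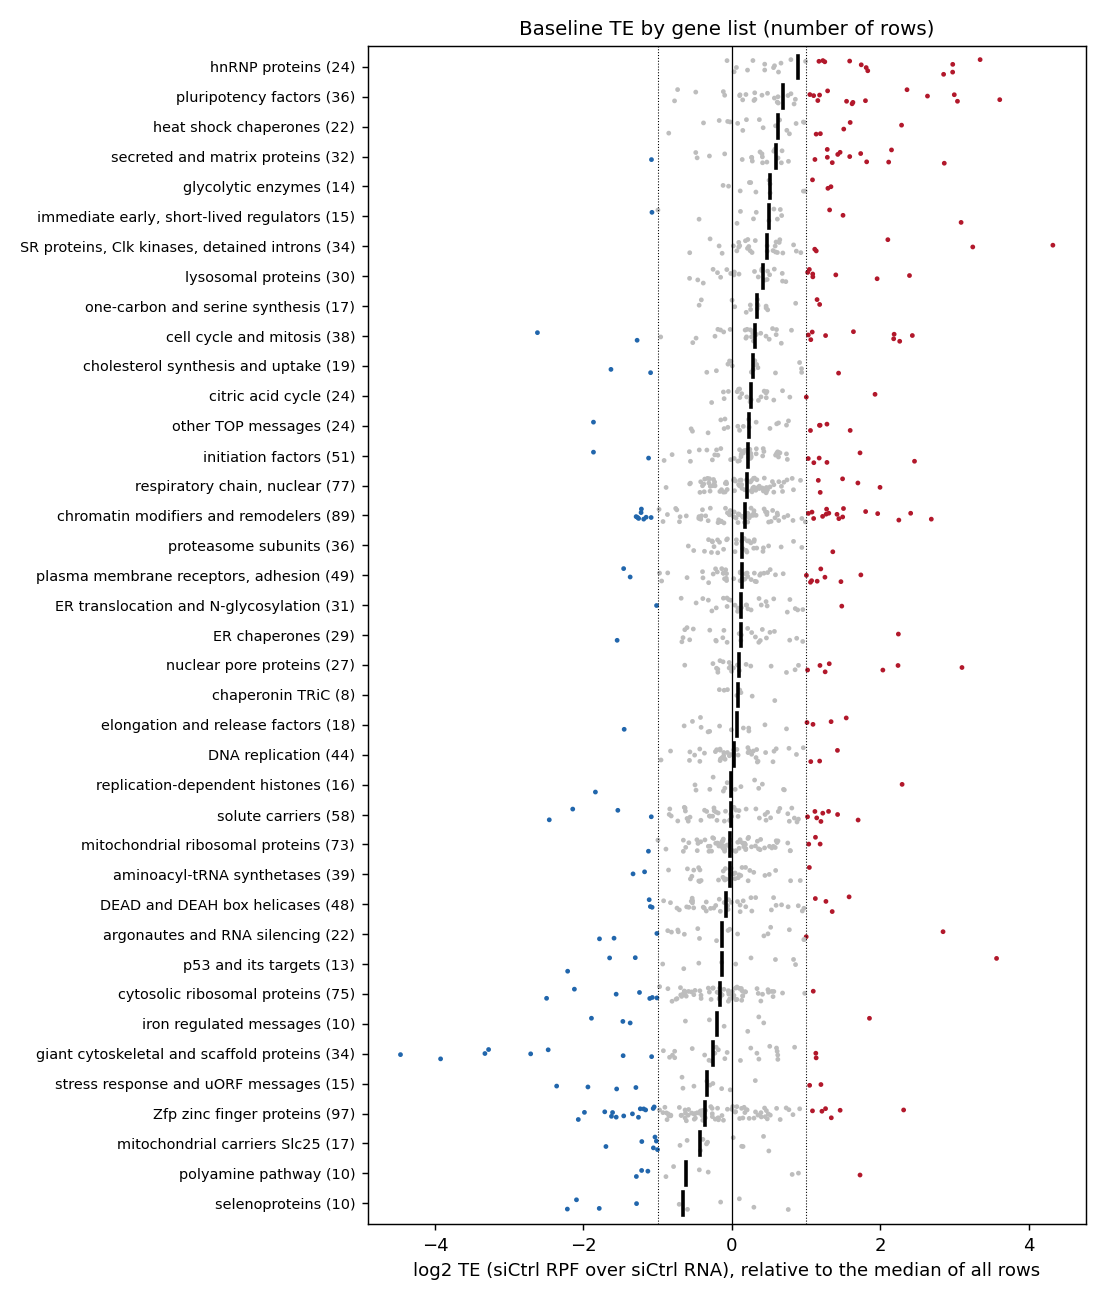
Log2 TE relative to the median of all rows (x axis) for the members of 39 gene lists, ordered by their median (black bar), with the number of rows in parentheses. Red points lie at least 2-fold above the median row and blue points at least 2-fold below it (dotted lines), and hnRNP proteins and pluripotency factors head the order while polyamine genes and selenoproteins end it.

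The hnRNP proteins, which package nuclear RNA and steer its splicing, had the highest median, 0.90. Of 24 rows 23 lay above the median row, 11 at least 2-fold above it and 0 at least 2-fold below. Hnrnpd, an AU-rich element binding protein, had 9608 footprint reads and 1099 RNA reads, a TE of 2.98. The poly(C)-binding proteins Pcbp1 (13313 and 1524 reads) and Pcbp2 (13688 and 1705) had 2.98 and 2.86. Ptbp1, the polypyrimidine tract binding protein, had 1.83 and Hnrnpa2b1 1.81. The lowest member, Hnrpdl, stood at -0.06. In the list of SR proteins, Clk kinases and messages with detained introns, 30 of 34 rows lay above the median row, with a list median of 0.48. Its upper end held Srrm1 (3.25) and Srrm2 (2.10), whereas the SR protein Srsf2 had 0.48. Clk1, a kinase of SR proteins whose message is known to be kept partly unspliced in the nucleus, was the lowest at -0.57 (1225 footprint reads and 1635 RNA reads).

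Pluripotency factors had a median TE of 0.69. Of 36 rows 31 lay above the median row, 14 at least 2-fold above it and 0 at least 2-fold below, 38.9% against the background of 10.0%. The upper end held transcription factors: Klf2 (6460 footprint reads and 707 RNA reads) had 3.04, Utf1 (9393 and 1059) 2.999, Tbx3 2.36 and Esrrb (7238 and 1871) 1.80. The core factors were lower. Sox2 had 4741 footprint reads and 3441 RNA reads, a TE of 0.31, and Pou5f1, which encodes Oct4, had 9988 and 14928, a TE of -0.73 (-0.77 to -0.69). Pou5f1 had 657 CPM of footprints, against 1232 CPM of RNA, and only Trim71, an RNA-binding ubiquitin ligase, was lower in the list (-0.77). Tet1, an enzyme that oxidises 5-methylcytosine, had 1.10, but -0.085 when RNA reads over the whole transcript replaced the CDS reads. Under that setting Sox2 also fell below the median row, to -0.63, and Pou5f1 had -0.46.

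In the list of immediate early and short-lived transcription regulators, 12 rows lay above the median row and 3 below it. Myc had 2212 footprint reads and 234 RNA reads, a TE of 3.09 (2.90 to 3.29), its relative Mycn 1.32 and Hes1, a repressor downstream of Notch, 0.67. Mcl1, an anti-apoptotic protein, had 0.07 and Jund, an AP-1 subunit, -1.07. The median of the 15 rows was 0.50, and it was -0.079 with RNA reads of the whole transcript. In the p53 list (median -0.14 over 13 rows), Trp53 stood alone: among its 12 targets and regulators the highest was Tnfrsf10b at 0.86, Mdm2, the ubiquitin ligase that degrades p53, had -0.14, Mdm4 -1.65 and Ccng1, cyclin G1, -2.21 (607 footprint reads and 2534 RNA reads). Cell cycle genes had a median of 0.31 with 9 of 38 rows at least 2-fold above and 2 below. Mki67 (2.43), Cenpf (2.26) and Cenpe (2.19), which encode large proteins of mitotic chromosomes, were at the top, and Plk4, the kinase that starts centriole duplication, at the bottom with 358 footprint reads, 1982 RNA reads and a TE of -2.62.

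Within the machinery of protein synthesis, ribosomal proteins had a median below that of all rows. The initiation factor list and the other TOP messages had a median above it, but these lists share rows, among them Eif3f, Eif4b and Eif4a2. The other TOP messages also share rows such as Eef1a1 and Eef2 with the elongation factors. The 75 rows of cytosolic ribosomal proteins had a median of -0.16, with 28 above the median row, 1 at least 2-fold above it and 7 at least 2-fold below it. Together they took 9.07% of footprint reads, against 12.5% of RNA reads. Rps12 (8270 footprint reads and 32419 RNA reads) had -2.12 and Rplp0, the stalk protein, (15948 and 42318) had -1.56, while Rpl6 had 0.98. With RNA reads of the whole transcript the list median was 0.056. Rpl41, the lowest member at -2.50, has so short a reading frame that few codons are left between those excluded: it had 15310 footprint reads in its first 15 codons and 206 in the rest, and its TE was 1.47 with all coding reads. Many of these genes have near-identical copies, so their single values are uncertain.

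The other TOP messages, 24 rows that are not ribosomal proteins, had a median of 0.23. Tpt1, the tumour protein TCTP, had 1.18 and Pabpc1, the poly(A)-binding protein, 1.06. The initiation factor list had a median of 0.22, with 37 of 51 rows above the median row. It also holds genes that are not initiation factors themselves. Among these are the argonautes Eif2c1 (now Ago1) and Eif2c2 (now Ago2), the eIF2 kinases Eif2ak1, Eif2ak2 and Eif2ak4, and the repressor Eif4ebp1. The list ran from Eif5b, which joins the subunits, at 2.46 (6539 footprint reads and 1069 RNA reads) and Eif5a at 1.73 to Eif4a2, a paralog of the cap helicase, at -1.86 (3163 and 10375), while its paralog Eif4a1 was at -0.02. Elongation and release factors had a median of 0.08, with Gspt1, a release factor subunit, at 1.54, Eef1a1 at 0.74 and Hbs1l, a ribosome rescue factor, at -1.45. Aminoacyl-tRNA synthetases split by compartment, a division made after their values were seen. The 15 mitochondrial enzymes had a median of -0.45 with 13 below the median row, and the 20 cytosolic ones had a median of 0.09 with 7 below it. The whole list of 39 rows had -0.02, and 0.42 with RNA reads of the whole transcript. Cars2, the mitochondrial cysteine enzyme, was lowest at -1.33 and Iars, the cytosolic isoleucine enzyme, highest at 1.05.

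Messages with known upstream reading frames or stress control had a median of -0.33, and 3 of 15 rows lay above the median row. Atf4, the transcription factor of the integrated stress response, whose upstream frames keep its own frame silent in unstressed cells, had 816 footprint reads and 3775 RNA reads on its CDS, a TE of -2.36 (-2.47 to -2.25). On its 5′ UTR it had 971 and 887 reads, so that 49.7% of its footprints, against 17.4% of its RNA reads, lay there. Ptp4a1, a phosphatase, had 1460 footprint reads on the 5′ UTR and 276 on the CDS, and a CDS TE of -1.55. Ifrd1 had 295 and 580, a TE of -1.29. Ppp1r15b, a regulatory subunit for the phosphatase of eIF2, had -0.66 with 31.3% of footprints, against 6.998% of RNA reads, in the 5′ UTR, and Eif5 had -0.33 with 24.3% against 9.36%. At the top were Slc7a1, a cationic amino acid transporter, at 1.20 and Uchl1, a deubiquitinating enzyme, at 1.05. With RNA reads of the whole transcript the list median was -1.12.

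In the polyamine pathway, which is known to control its own translation, 7 of 10 rows lay below the median row. Odc1, ornithine decarboxylase, had 5467 footprint reads and 11435 RNA reads, a TE of -1.21 (-1.26 to -1.17). Azin1, the antizyme inhibitor, had 1122 and 2214, a TE of -1.13, with 43.9% of footprints, against 12.2% of RNA reads, in the 5′ UTR. Amd2, a near-identical copy of the gene for adenosylmethionine decarboxylase, had -1.29. Dhps (-0.89), Dohh (-0.78), Paox (-0.44) and Sms (-0.32) also lay below the median row. Above it were Eif5a, which is modified with a part of spermidine, at 1.73, Slc3a2 at 0.90 and the synthase Srm at 0.81. The 10 rows had a median of -0.61 with members on both sides. Selenoproteins, which read a UGA codon as selenocysteine, had a median of -0.65, the lowest of all lists, with 4 of 10 rows at least 2-fold below and 0 at least 2-fold above. That median was -1.33 with RNA reads of the whole transcript, and also -1.33 over the 7 rows with at least 500 reads in both libraries. 2700094K13Rik (now Selenoh) had 680 footprint reads and 2847 RNA reads, a TE of -2.22, and Sephs2, which makes the selenium donor, 984 and 3783, a TE of -2.09. The glutathione peroxidases Gpx1 and Gpx4 had 2531 and 5218 footprint reads against 7865 and 11445 RNA reads, TE values of -1.79 and -1.28. Txnrd1, a thioredoxin reductase, had 0.10 and Ept1 (now Selenoi) 0.76. Among iron regulated messages, the ferritin Fth1, which is repressed through an element in the 5′ UTR, had -1.37. The row named Ftl2, which matched no RefSeq gene here, had -1.47 on 266 footprint reads and 663 RNA reads. Tfrc, the transferrin receptor, had 0.22, and the 10 rows had a median of -0.20.

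**Figure D4:**
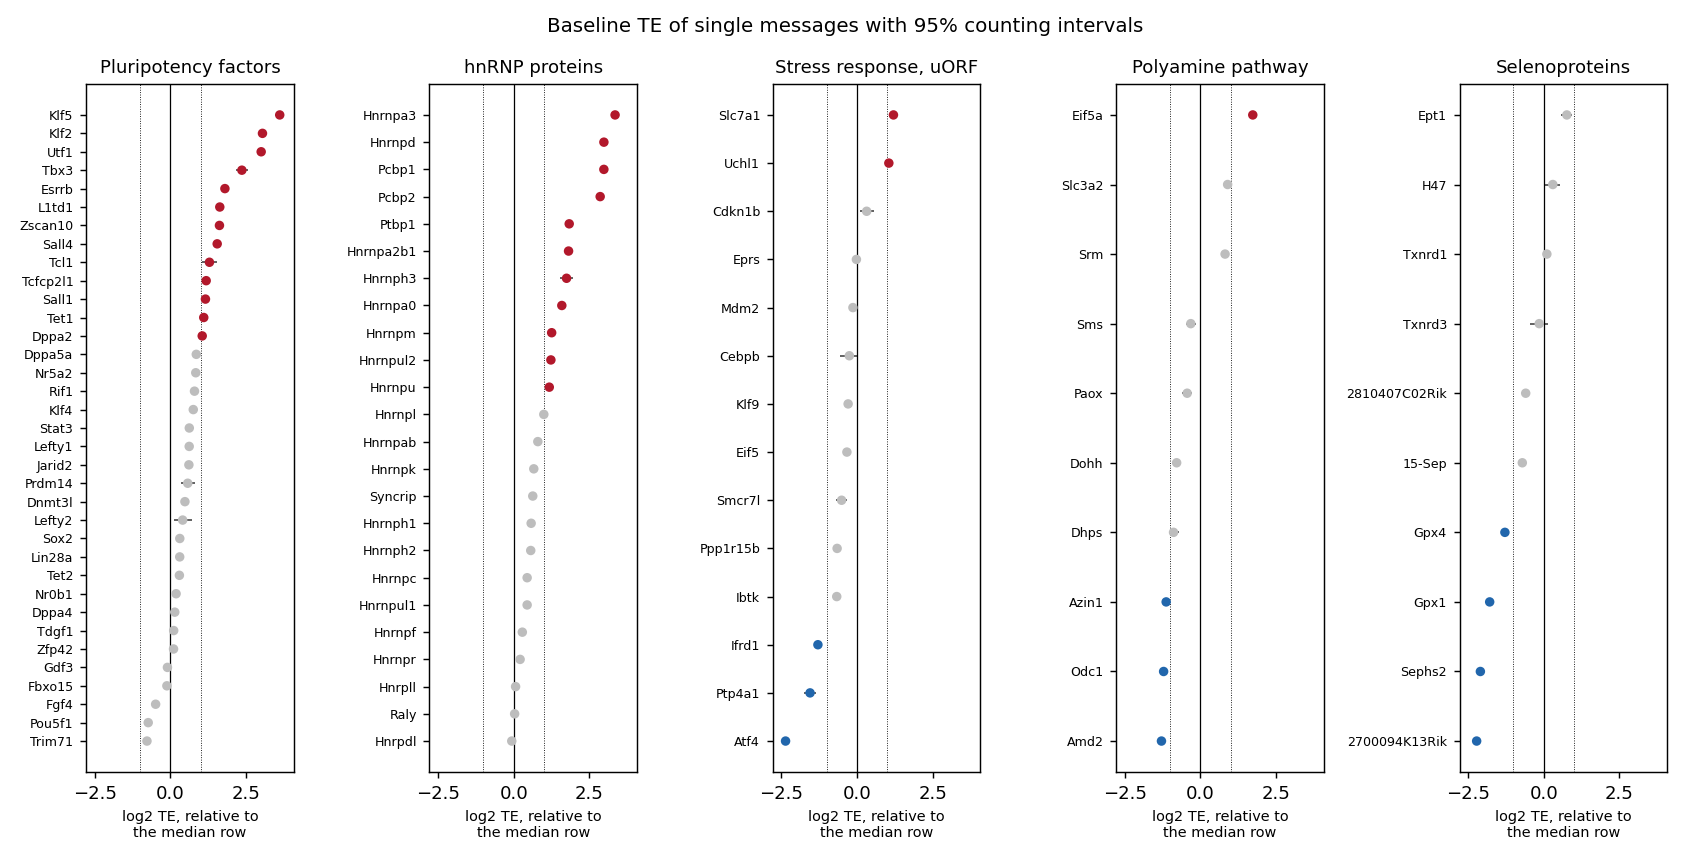
Log2 TE relative to the median row (x axis) of members of 5 lists, with 95% counting intervals as horizontal bars, most of them narrower than the symbols; red and blue mark rows at least 2-fold above and below the median row. Klf5 and Hnrnpa3 lead their lists, Pou5f1 is next to last among the pluripotency factors, and Atf4, Amd2 and 2700094K13Rik end the other 3.

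Lists of energy, folate and cholesterol metabolism and of chaperones had medians above that of all rows. The polyamine pathway (-0.61) and the Slc25 carriers lay below it. Glycolytic enzymes had a median of 0.51, with 12 of 14 rows above the median row: Pgam1, phosphoglycerate mutase, had 1.34, Ldha, lactate dehydrogenase, 1.30 and Pfkl, a phosphofructokinase, -0.12. The citric acid cycle had 0.26 with 20 of 24 rows above the median row and Mdh2, malate dehydrogenase, at 1.93, and the nuclear-encoded respiratory chain had 0.20 with Atp5j, a subunit of the ATP synthase, at 2.00. Enzymes of folate and serine metabolism had 0.35 with 15 of 17 above the median row. Heat shock chaperones had 0.62 with 17 of 22 above. Cholesterol synthesis and uptake had 0.29, from Srebf2, the transcription factor that drives it, at 1.44 to Scap, its escort protein, at -1.63. Proteasome subunits had a median of 0.14, between -0.59 for Psmd2 and 1.36 for Psmb2. The 8 rows of the TRiC chaperonin had a median of 0.09, between -0.17 for Tcp1 and 0.58 for Cct8, and 0.52 with RNA reads of the whole transcript. The 17 mitochondrial carriers of the Slc25 family had a median of -0.42 (-0.83 with RNA reads of the whole transcript), 6 rows at least 2-fold below and 0 above. The abundant carriers Slc25a3 (phosphate, 0.50) and Slc25a5 (ADP/ATP, 0.43) were at its top and Slc25a39 at its bottom (685 footprint reads and 2000 RNA reads, -1.70).

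Secreted and matrix proteins had a median of 0.60, with 12 of 32 rows at least 2-fold above the median row. They included the basement membrane proteins Hspg2, perlecan (13385 footprint reads and 1657 RNA reads, 2.86), and Nid1, nidogen (1.74). Dag1, dystroglycan, had 2.15 and Fn1, fibronectin (26853 and 5588 reads), 2.12, while Bmp4, a growth factor, had -1.08. Lysosomal proteins had a median of 0.43. Cd164 led that list at 2.40, but had -0.35 with RNA reads of the whole transcript. Plasma membrane receptors and adhesion proteins (0.14), ER chaperones (0.12), ER translocation and N-glycosylation (0.13, and -0.076 with RNA reads of the whole transcript) and solute carriers outside Slc25 (-0.01) lay near the median of all rows. Among them Cdh1, E-cadherin, had 10172 footprint reads and 3306 RNA reads, a TE of 1.47, Pdia3, a disulfide isomerase, 2.25 and Slc7a5, an amino acid transporter, 1.70, whereas the zinc transporters Slc30a5 and Slc30a9 had -2.46 and -2.14.

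Giant cytoskeletal and scaffold proteins shared size but not TE. Of 34 rows 8 lay at least 2-fold below the median row and 2 at least 2-fold above it, with a median of -0.25 and a mean of -0.64. Besides Spnb2, Flna and Iqgap1, Macf1, which links actin and microtubules, had 1644 footprint reads and 9695 RNA reads, a TE of -2.71. Akap9 (1.14) and Golgb1 (1.13), which encode large coiled-coil proteins of the Golgi and centrosome, the myosin Myh9 (0.85) and the ubiquitin ligase Huwe1 (0.62) lay above the median row. With RNA reads of the whole transcript the median of the list was 0.21, while Spnb2 remained at -4.03 and Flna at -2.69.

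Nuclear regulators of other kinds were spread in both directions. Chromatin modifiers had a median of 0.17 with 16 of 89 rows at least 2-fold above and 8 below. Arid1a, a BAF subunit, had 2.41 and Brd7, a subunit of a related complex, -1.29. Zinc finger proteins of the Zfp series had a median of -0.35, from Zfp609 at 2.32 to Zfp639 at -2.07. Of their 97 rows 6 lay at least 2-fold above the median row and 14 at least 2-fold below it. Nuclear pore proteins had a median of 0.10 (0.55 with RNA reads of the whole transcript) with 7 of 27 rows at least 2-fold above and 0 below, among them Tpr (2.24) and Nup214 (2.04). Argonautes and the silencing machinery had a median of -0.13, with Cnot3 at 2.85 and Cnot6 at -1.78, both from the CCR4-NOT deadenylase. The medians of DNA replication factors (0.03), histones (-0.01), mitochondrial ribosomal proteins (-0.02) and DEAD or DEAH box helicases (-0.08) were close to that of all rows. The lowest histone, Hist1h4h at -1.84, was at 0.68 with all coding reads, since 3273 of its footprint reads lay in the first 15 codons.

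Low-TE messages had more of their footprints on the 5′ UTR, whose reads do not enter TE. Among the 4101 rows with at least 20 RNA reads on the 5′ UTR, a median of 15.7% of footprints lay there in the 406 low rows, against 6.12% in the 419 high rows and 6.63% in the 3276 rows between. The median share of RNA reads there was 4.90% in low rows, 4.86% in high rows and 4.37% in those between. At least 25% of footprints lay on the 5′ UTR in 105 low rows (25.9%), in 19 high rows (4.53%) and in 221 of the rows between (6.75%). These shares are coupled to TE, since fewer CDS footprints raise the share of the 5′ UTR. The ratio of footprints to RNA within the 5′ UTR, which shares no reads with TE, ran the same way as TE mainly at its upper end. In 5 equal bins of rows by that ratio, from lowest to highest, the median TE was -0.11, -0.16, -0.10, 0.06 and 0.56. The median 5′ UTR ratio on this log2 scale was -0.22 in low rows, 0.01 in those between and 1.08 in high rows. That ratio exceeded the TE of the same row in 88.7% of low rows, 49.8% of those between and 32.5% of high rows. This last comparison contains TE itself.

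By footprint reads, the median TE ran from -0.43 in the lowest of 5 bins to 0.32 in the highest, and low rows made up 20.7% and 1.30% of these bins, but footprint reads are the numerator of TE. By RNA reads, the median TE was 0.22 in the lowest of 5 bins, -0.13 in the middle bin and 0.08 in the highest, but RNA is the denominator of TE, and the floor of 150 footprint reads leaves out low-TE rows with little RNA. By the ratio in the first 15 codons relative to the rest of the CDS, the medians ran from 0.18 in the lowest bin to -0.27 in the highest, and this ratio contains the CDS reads too. Rows with the largest share of RNA reads on the 3′ UTR had a median of 0.14, and those with the smallest -0.09. By GC content of the first 50 bases from the RefSeq start, the medians lay between 0.05 and -0.06, while low rows made up 6.76% of the bin with least GC and 13.5% of the bin with most. Spearman's rho with TE across rows was 0.43 for footprint reads, 0.31 for the 5′ UTR ratio, -0.22 for the 5′ UTR share of footprints, -0.22 for the first codons, 0.10 for the 3′ UTR share, -0.09 for RNA reads and -0.06 for GC content, each a description over rows of 1 pair of libraries.

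**Figure D5:**
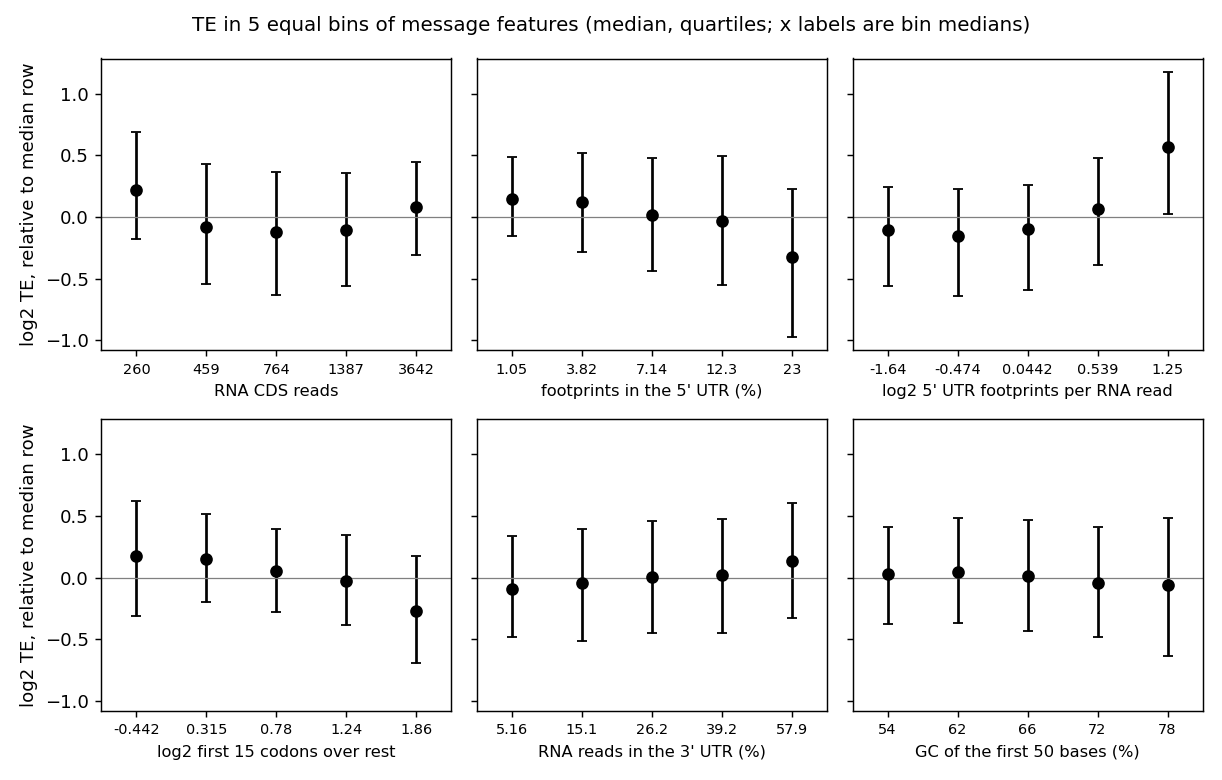
Median log2 TE relative to the median row (points) with its quartiles (bars) in 5 equal bins of 6 message features, each x axis labelled with the median of its bin. TE falls to -0.33 in the bin with most footprints on the 5′ UTR and stands at 0.56 in the bin with the highest 5′ UTR footprint ratio, while the bins of GC content lie within 0.05 and -0.06.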

How the data were processed

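The authors deposited raw counts of reads per transcript region for RNA and footprints, per the file headers, and log2 translation efficiency, which differed from the values here by a constant. The submitters' processing notes name cutadapt, Bowtie2 and the mm9 build. What is not given in the sources used here are versions, the counting tool, and how strand and multiple matches were handled. Overlapping and near-identical genes are therefore uncertain. CDS counts were scaled to their column sums, divided, logged and centred on the median row with Python 3.11.15, numpy 2.4.6 and pandas 2.3.3. TMM scaling (edgeR 4.0.16, R 4.3.3) put the median row at -0.02 in place of -0.18. Intervals of 95% come from the 2 counts of a row by the delta method. They cover counting error only, as PCR reads lacking molecular identifiers may be copies. Samples were grouped by title, and nothing says that the libraries came from separate cultures. The calculation was tested on simulated counts. RefSeq (GRCm38.p6) matched 6471 rows by accession, 51 by symbol and 13 not at all. Of 40 value columns, 15 were used.

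Genes were named by rule: the 12 highest and 12 lowest rows, the 8 with most reads in each library, each list's extremes, and genes known for translational control or for stem cells. Others were chosen after their values were seen. The members and the 40 gene lists were chosen with earlier results of these data known. Protein features were not analysed here, and some genes that the rule names are not reported here.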

Additional observations from a re-analysis of the deposited data

Results flagged for a closer look

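Reads outside the CDS are not used in TE, and 9 rows had at least 150 footprint reads on the annotated 3′ UTR. They were mt-Nd4 with 6538 reads, Capzb with 454, Tle3 with 376, Dennd5b with 219, Rpl41 with 185, Atpaf1 with 181, Zfp459 with 160, Sf1 with 158 and Rpl39 with 153. Over all rows 0.205% of footprint reads and 28.7% of RNA reads lay there. The row mt-Nd4 had a CDS TE of 0.38 and also had 8948 RNA reads on that stretch, and its description names another chain than its symbol, so which mitochondrial reading frame it covers is uncertain.

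In the first 15 codons, Rpl41 had 15310 footprint reads, against 206 in the rest of its CDS, and Hist1h4h had 3273, against 226. On the 5′ UTR, Pol had 16700 footprint reads, against 467 on its CDS, and Ptp4a1 had 1460, against 276. There are no control libraries for these regions, and their sources were not tested.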

How the results depend on the processing

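No paired analysis was possible because each group had 1 library of each kind and no test was run. The counts depend on the threshold: 1311 rows above and 1263 below at 1.5-fold, and 238 and 174 at 3-fold, against 655 and 562 at 2-fold. Among the 3825 rows with at least 500 reads in both libraries, 339 lay above and 232 below, and the medians were -0.12 for mitochondrial ribosomal proteins and -1.33 for selenoproteins. With RNA reads of the whole transcript, 911 rows lay below. Under that setting the list medians were 0.056 for cytosolic ribosomal proteins, 0.42 for aminoacyl-tRNA synthetases, 0.36 for the proteasome, -0.076 for ER translocation, -0.45 for Zfp proteins, 0.32 for chromatin modifiers, -0.079 for immediate early genes and 0.32 for DNA replication. The largest shift there was to -1.12 for stress response and upstream frame messages, and selenoproteins had -1.33, Slc25 carriers -0.83, TRiC 0.52 and nuclear pore proteins 0.55. Single rows changed sign there in both directions, and those given here are examples. Cd164 turned to -0.35, Tet1 to -0.085, Sox2 to -0.63, Srsf2 to -0.51, Ept1 to -0.30 and Tfrc to -0.17. The row mt-Nd4 also fell below the median row, whereas Hspa8 turned to 0.40 and Rpl3 to 0.09. With all coding reads Rpl41 turned to 1.47, Hist1h4h to 0.68 and Gcsh to 0.35. The cause was not tested for the whole-transcript values. Medians near 0 also changed sign: histones to 0.31 with all coding reads, and DEAD box helicases to 0.15, giant cytoskeletal proteins to 0.21 and mitochondrial ribosomal proteins to 0.02 with whole-transcript RNA, and elongation factors to -0.13 and iron regulated messages to 0.01 among rows with at least 500 reads. Adding 0.5 reads, keeping 1 row per symbol, the authors' deposited TE and the authors' library totals moved the counts by at most 1. Without predicted genes, pseudogenes and Pol, a setting chosen after seeing the data, 635 rows lay above and 538 below. A pyrimidine run of at least 7 bases and GC content were also chosen after seeing the data, and 76 rows with the longer run had a median of 0.12. Depth limits rows near the floor, whose intervals reach ± 0.32, and messages under 150 reads in any RNA or footprint library of the series are not analysed here. Planned bins by protein length and groups by protein sequence were not run.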

Other observations

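Gene families named by a shared symbol prefix were compared as a description, over the 70 families with at least 10 rows. The 11 Srsf rows, the SR splicing factors, all lay above the median row within a narrow band, from 0.02 for Srsf12 to 0.65 for Srsf9, with a median of 0.48. The Ube family, mostly ubiquitin-conjugating enzymes, had the same median of 0.48 over 29 rows but a wide spread, with 10 rows at least 2-fold above and 4 below. Rab proteins, the small GTPases of vesicle traffic, had a median of 0.38, with 7 of 23 rows at least 2-fold above, and Rab7, of late endosomes, stood at 2.24. The Sec proteins of vesicle coats and translocation had a median of 0.29.

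At the other end, Ankrd rows had a median of -0.62 over 10 rows, and Ttc rows, which carry tetratricopeptide repeats, -0.54 with 2 of 17 above the median row. Rnf rows, RING finger ubiquitin ligases, had a median of -0.44 with 8 of 37 at least 2-fold below and 1 above. Centrosomal Cep rows had -0.33, with 4 of 19 above the median row. The medians of the Ube and Rnf rows, which both act in ubiquitin transfer, thus lay on opposite sides of the median row, and this difference was not tested.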
